A study of Mus musculus with 4 samples.

Results

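Malat1, Neat1, Miat and Snhg11 are long noncoding RNAs that are known to be retained in the nucleus. Their N6-methyladenosine (m6A) peaks in the mouse spinal cord were taken from the rows of 3 peak tables whose gene name was one of these 4. The CCI list held 24 such rows of 33556, the sham list 23 of 34406, and the table of differential peaks 5 of 4812. Neat1 had 10 rows in each list and 2 in the differential table, Miat had 10, 10 and 0, and Snhg11 had 4, 3 and 3. No row carried the name Malat1 in any of the 3 tables analysed here.

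The study used male C57BL/6J mice of 6 to 8 weeks. Spinal cord was collected on day 7 after chronic constriction injury (CCI) of the sciatic nerve, a model of neuropathic pain, or after sham surgery. Poly(A) RNA was fragmented and precipitated with an m6A antibody (MeRIP-seq), and 1 IP library and 1 input library were sequenced per surgery. The comparison asks how the m6A sites of these RNAs differ between injured and sham cord, and with 1 IP library a surgery it is a comparison of libraries, with no spread between mice and no test. The number of mice behind each library is not given in the sources used here.

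m6A is written on nuclear RNA by a methyltransferase complex around METTL3 and METTL14 and is bound in the nucleus by YTHDC1. Neat1 is the scaffold of paraspeckles and is made as a short polyadenylated and a long isoform, of which the long one builds the paraspeckle. Malat1 is a very abundant RNA of nuclear speckles, Miat is a nuclear RNA found in neurons that binds splicing factors, and Snhg11 is a small nucleolar RNA host gene expressed in neurons. The 3′ ends of the long Neat1 isoform and of Malat1 are made by RNase P cleavage and carry no ordinary poly(A) tail.

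Each peak carries a fold enrichment, which is the ratio of IP to input signal in that peak. It is relative to the input of the same group and is not a level of the RNA. Without read counts in these tables, the depth behind a peak is unknown and a single fold enrichment has no error. The spinal cord label was checked by the presence of peaks, which shows capture and not level. Peaks were present in both lists for 5 of 5 oligodendrocyte, 4 of 4 astrocyte, 4 of 4 microglia, 3 of 3 spinal motor and glycinergic and 4 of 5 neuron markers. Of the markers of tissue that could be taken along, sensory ganglion had 1 of 5 in CCI and 2 of 5 in sham, and muscle had 0 of 4 in CCI and 1 of 4 in sham. In such bulk tissue, fewer cells of a type and less RNA per cell cannot be told apart.

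The members shared most of their peaks between the lists. A peak was paired with its best overlapping partner in the other list. At least 1 base of overlap was found for 23 of 24 member peaks in CCI (95.8%, Wilson 95% interval 79.8 to 99.3, counting error only) and for 22 of 23 in sham (95.7%, 79.0 to 99.2). Over all genes the share of rows was 87.7% in CCI and 83.9% in sham. Some member sites are listed as more than 1 row, so the member rows are not independent and the intervals are too narrow. Joined over both lists, the peaks under a member name made 17 sites. By name, 14 of them were in both lists, 2 in CCI alone and 1 in sham alone. The share by site over all genes is not given here, so the site counts have no background beside them. The 3 sites of a single list were 1 of Snhg11 and 1 of Miat in CCI and 1 of Miat in sham. The Miat site in CCI overlapped a sham peak listed under another name, so it counts above as a peak with a partner.

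**Figure D1:**
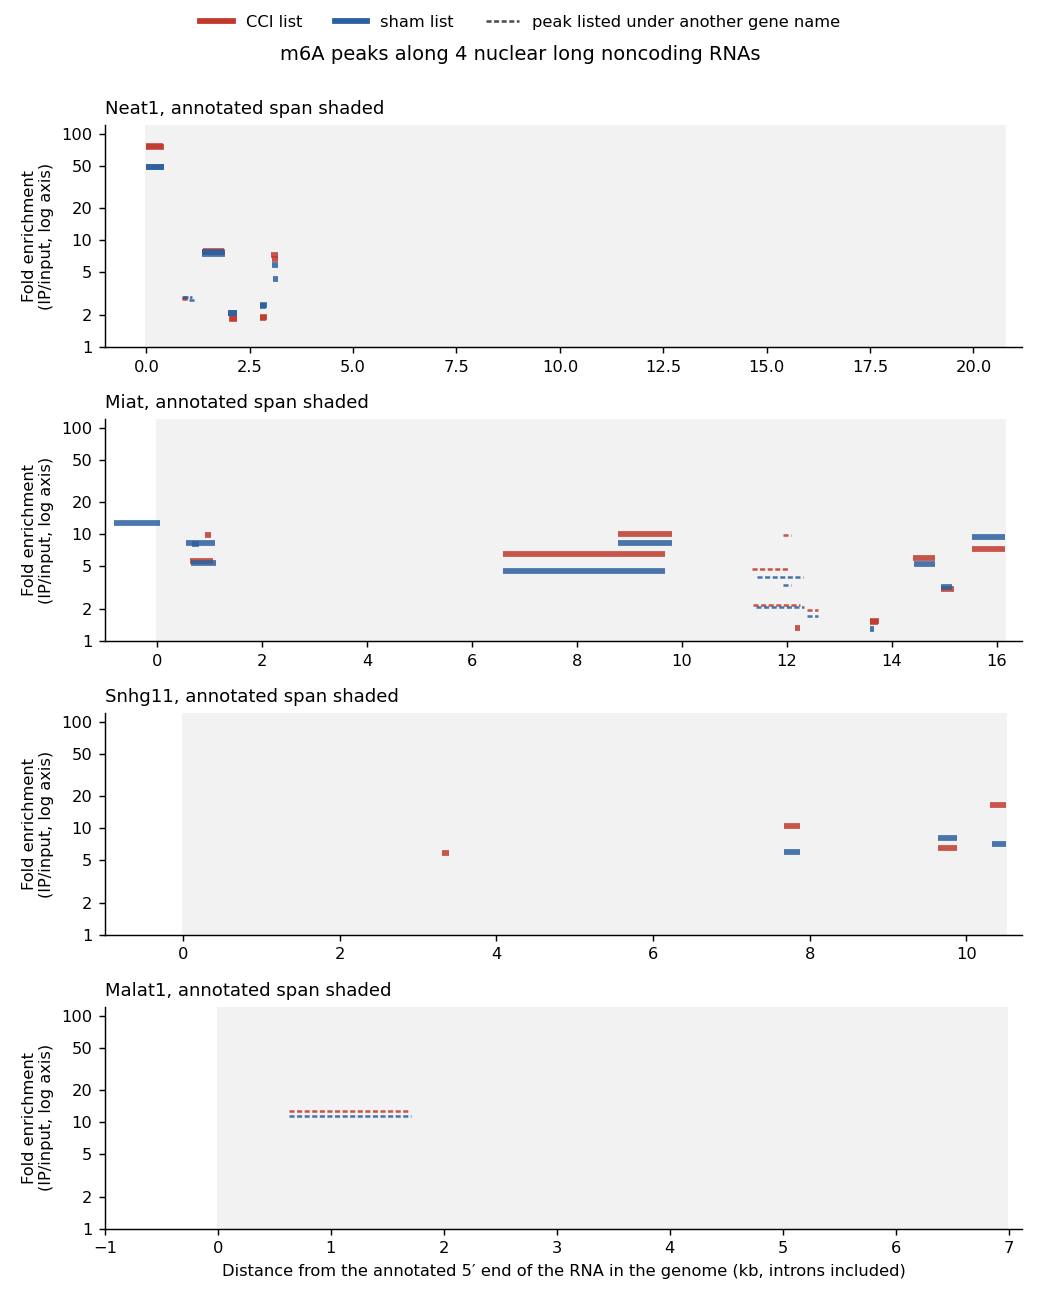
Peaks along the 4 RNAs, with distance from the annotated 5′ end in kb on the x axis and fold enrichment of IP over input on a log y axis; red bars are CCI peaks, blue bars sham peaks and dashed bars peaks listed under another gene name, each drawn from its first to its last base with introns included. All Neat1 peaks sit at the 5′ end of a 20771-base span, Snhg11 peaks lie mainly toward the 3′ end, and the Malat1 span holds a dashed peak in each list.

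Neat1 (ENSMUSG00000092274, chr19:5824708-5845478 in GRCm38, minus strand) carried the strongest member peak, at its 5′ end. This peak lay at chr19:5845058-5845478, 0 to 420 bases from the first base of the RNA. Its fold enrichment was 75.5 and 76.1 in CCI and 49.1 and 48.2 in sham. The values come as pairs because the lists hold each Neat1 site as 2 overlapping rows, so 10 rows stand for 5 sites. CCI was the higher list here, with a log2 ratio of 0.62 for the pair with the same borders. Of all peaks, 97.8% had a lower value in CCI and 96.3% in sham. The start of a transcript is a region of high values in these lists, since peaks at an annotated start had a median fold enrichment of 8.16 over 5161 peaks in CCI and 8.02 over 5684 in sham. Among those start peaks, 94.9% were lower than Neat1 in CCI and 91.9% in sham.

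The other 4 Neat1 sites were weaker. At chr19:5843586-5844129, 1349 to 1892 bases from the 5′ end, fold enrichment was 7.79 and 7.88 in CCI and 7.47 and 7.73 in sham, a log2 ratio of 0.06 for the pair. The last site, chr19:5842301-5842456, had 6.66 and 7.34 in CCI and 5.81 and 4.36 in sham, and its pair with the same borders had a log2 ratio of 0.20. The highest rows of that site gave 0.34, so both sites were higher in CCI, by an amount that depends on the row for the last one. The remaining sites ran the other way. At chr19:5843288-5843500 the values were 1.85 and 1.84 in CCI and 2.10 and 2.07 in sham, and at chr19:5842571-5842723 they were 1.91 and 1.87 in CCI and 2.49 and 2.42 in sham. Their paired log2 ratios were -0.19, -0.37 and -0.38. The 2 Neat1 rows of the differential table both fell on the first of these weak sites, with IP over input values of 1.99 and 1.96.

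In both lists the Neat1 peaks lay in the stretch that the short and the long isoform share, so they cannot be assigned to either isoform. The short transcript spans chr19:5842307-5845476, 3170 bases or 15.3% of the long one, and the peaks reached at most 6 bases past its 3′ end. Apart from a few bases at the borders of the short transcript, the 17601 bases that belong to the long transcript alone held no row of any name. Peaks covered 1439 bases of the short transcript in CCI and 1474 in sham, 45.4% and 46.5% of its length. In the same stretch, a gene model of 152 bases inside Neat1, Gm27533, was the name of 2 further CCI peaks with 2.84 and 2.89 and of 3 sham peaks with 2.92, 2.96 and 2.78. Its pair had a log2 ratio of -0.01, and 1 row of the differential table carried that name. The libraries were made from poly(A) RNA, and how much of the long isoform they hold was not tested.

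Malat1 had no row by name, but its span held a peak in each list. RefSeq places Malat1 at chr19:5795690-5802672 in GRCm38 (minus strand, 6983 bases). The CCI list had a peak at chr19:5800994-5802043 with fold enrichment 12.7, and the sham list a peak at chr19:5800964-5802043 with 11.5. Both were named Gm37376, a gene model on the opposite strand at chr19:5801941-5802393. Only 103 bases of each peak lay within that model, 9.81% of the CCI peak and 9.54% of the sham peak. The peak began 629 bases from the Malat1 5′ end and covered 15.0% of the span in CCI and 15.5% in sham. The lists were close, with a log2 ratio of 0.14, and 77.3% of all peaks were lower in CCI and 72.5% in sham. The differential table had 1 row there, also named Gm37376. The libraries were made with a dUTP kit that marks strand, but whether strand was used in peak calling is not given in the sources used here, so from these tables the peak cannot be assigned to either gene.

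Miat (ENSMUSG00000097767, chr5:112213228-112229395, minus strand, 16168 bases) had peaks at both ends of its annotated span and between them. Its 8 sites had fold enrichment of 1.31 to 10 in CCI and 1.28 to 12.8 in sham. At the 5′ part, chr5:112228288-112228855, the values were 5.63 and 9.90 in CCI and 5.42, 8.30 and 8.13 in sham. The borders of these peaks differed between the lists, and the pairs had log2 ratios of -0.53 and 0.87. In the middle of the RNA, chr5:112219583-112222803, the values were 10 and 6.52 in CCI and 8.34 and 4.48 in sham, and CCI was higher in both pairs, with log2 ratios of 0.26 and 0.54.

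Toward the 3′ end of Miat the first 2 of the 4 paired sites were higher in CCI and the last 2 lower. At chr5:112215645-112215812 fold enrichment was 1.54 and 1.49 in CCI and 1.28 in sham. The site chr5:112214577-112214996 had 5.97 in CCI and 5.25 in sham, and the site chr5:112214217-112214457 had 3.06 and 3.17. The last site, chr5:112213228-112213857, ends at the 3′ end of the RNA and had 7.30 in CCI and 9.52 in sham, a log2 ratio of -0.38. It was the lowest ratio among Miat pairs with the same borders. Peaks covered 2686 bases in CCI and 2702 in sham, 16.6% and 16.7% of the span. This span is that in the genome with introns included, so the shares are not of the spliced RNA.

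Each list also held a site under the name Miat that the other lacked under that name. The sham site, chr5:112229353-112230216, crossed the annotated 5′ end and had a fold enrichment of 12.8, the highest value under the name Miat in either list. It held only 61 exonic bases and lay outside the RefSeq span of Miat, chr5:112213228-112228948. The CCI site, chr5:112217155-112217245, had 1.31. It overlapped sham and differential peaks listed under another name, so its presence in CCI alone is one of the name and not of the position. Of the Miat rows, 5 of 10 in CCI and 6 of 10 in sham are annotated to exons of another, unnamed gene model, ENSMUSG00000097986. That model overlaps Miat. Both sites of a single list are among those rows, and the rest are annotated to Miat itself.

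Small gene models inside the Miat span gave their names to further peaks. Gm27627, a model of 150 bases, named 3 peaks in each list, and Gm27882 named 1. The peak of Gm27627 that spans exactly its 150 bases, chr5:112217318-112217467, had 9.83 in CCI and 3.36 in sham, a log2 ratio of 1.55 that exceeded 96.6% of all pairs. Its borders were the same in both lists, and it is annotated to an exon of Miat. Only its name keeps it out of the member pairs. Longer peaks over the same bases differed less, with 4.68 and 3.97 and with 2.15 and 2.08. The Gm27882 peak, also annotated to an exon of Miat, had 1.96 in CCI and 1.70 in sham. The differential table had no row named Miat but 2 named Gm27627 in its span. Counting every name, peaks covered 23.2% of the RefSeq span of Miat in CCI and 23.9% in sham, introns included.

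Snhg11 (ENSMUSG00000044349, chr2:158375638-158386145, plus strand) had its strongest CCI peak at the 3′ end. At chr2:158385936-158386145 fold enrichment was 16.6 in CCI, and the sham peak, chr2:158385966-158386145, had 7.08. The log2 ratio of 1.23 exceeded 94.2% of all pairs and was the only ratio past 1 among pairs listed under a member name. Since the borders of this pair differ, no pair under a member name with the same borders was past 1. At chr2:158383305-158383514 the values were 10.4 and 5.95, a log2 ratio of 0.81 between peaks with the same borders. Between them, chr2:158385278-158385517 went the other way, with 6.59 in CCI and 8.13 in sham, a log2 ratio of -0.30. A further site, chr2:158378939-158379029, was in the CCI list alone, with 5.89. All 3 paired sites had a row in the differential table, and the share of all pairs with such a row is not given here. The tables annotate these 3 as 3′ UTR, although RefSeq classes Snhg11 as a lncRNA. Peaks covered 751 bases in CCI and 630 in sham, 7.15% and 6.00% of the span in the genome, any introns included.

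**Figure D2:**
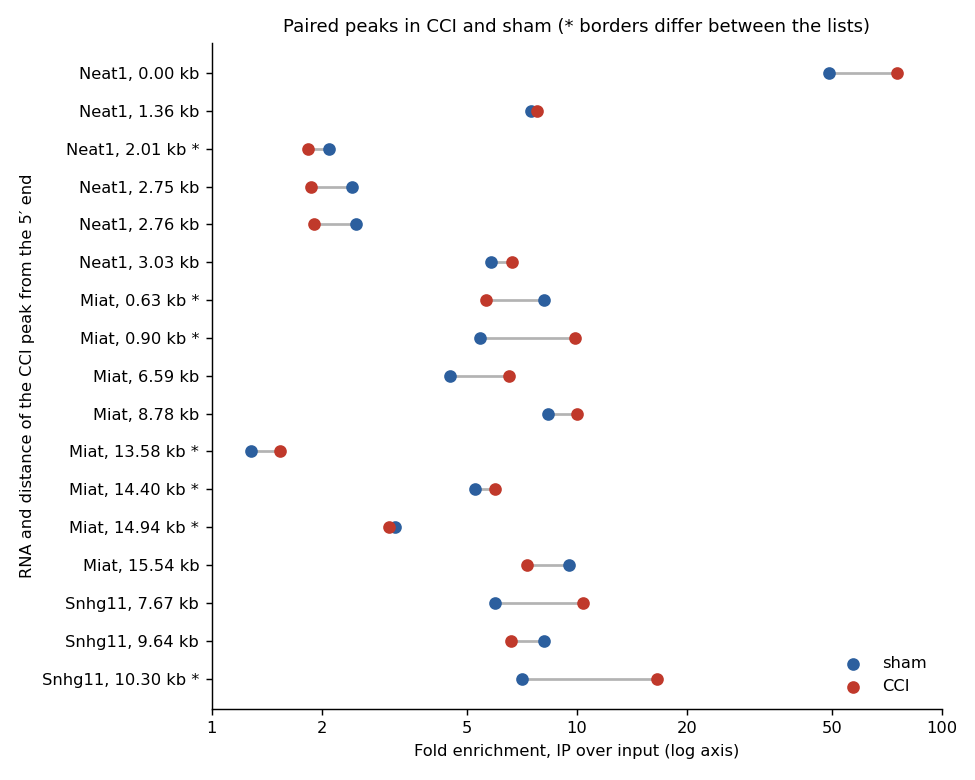
Fold enrichment of IP over input (log x axis) in sham (blue) and CCI (red) for the 17 member pairs, each row being a pair labelled with its distance from the 5′ end; an asterisk marks pairs whose borders differ between the lists. The 5′ Neat1 pair lies far to the right of the others, and 10 pairs have the CCI point on the right and 7 the sham point.

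Set side by side, the members did not move one way. The 17 pairs had a median log2 ratio of 0.19, from -0.53 to 1.23, against a median of 0.03 over all 27380 pairs, of which 51.8% were higher in CCI. Of the member pairs, 10 were higher and 7 lower in CCI, with 1 Neat1 site entering as 2 lower pairs, and by the highest value at each site shared by the lists 9 sites were higher and 5 lower. An absolute log2 ratio of at least 1 was reached by 1 of 17 member pairs (5.88%), against 15.8% of all pairs and 24.4% of the 528 pairs of RefSeq lncRNA names, whose median was -0.04. At 0.5 it was 6 of 17 (35.3%), against 41.5%. By name, the member shares are thus no higher than the background. The Gm27627 pair annotated to a Miat exon, with a log2 ratio of 1.55, is not among the 17. The medians were -0.07 for 6 Neat1 pairs, 0.22 for 8 Miat pairs and 0.81 for 3 Snhg11 pairs. When each RNA was instead given its mean fold enrichment over all covered bases, the log2 ratios were 0.56 for Neat1, -0.08 for Miat and 0.55 for Snhg11. The direction thus turned for Neat1 and Miat. The Neat1 mean is dominated by its strong 5′ site, whose pair had a log2 ratio of 0.62. Over pairs with the same borders alone the median was 0.06 for Neat1 and 0.25 for Snhg11, and the highest value per site gave 0.03 for Neat1.

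**Figure D3:**
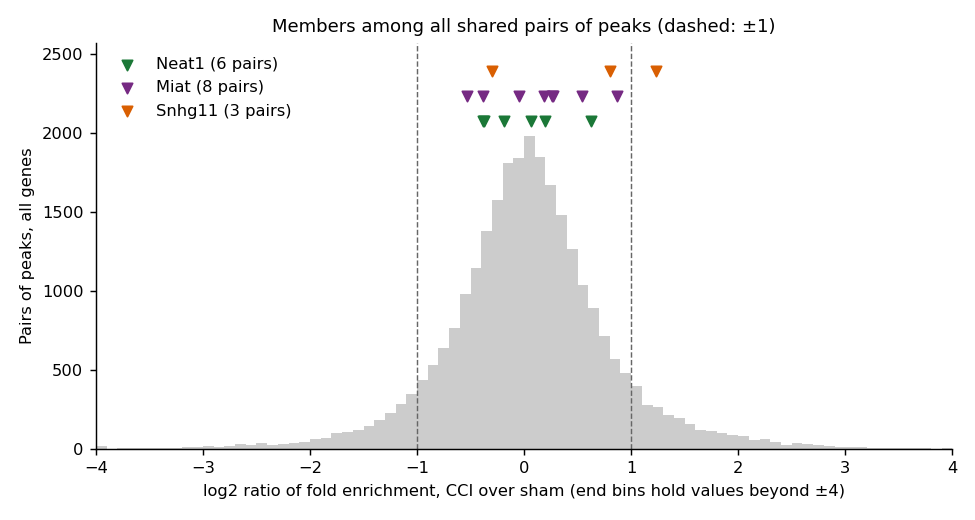
Histogram of fold enrichment in CCI relative to sham, as log2 (x axis, bins of 0.1) over all 27380 pairs (y axis, number of pairs), with triangles for the member pairs of Neat1, Miat and Snhg11 and dashed lines at an absolute log2 ratio of 1. A single triangle, of Snhg11, lies outside the dashed lines.

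By gene name, 2 of 4 members had a row in the differential table, Neat1 and Snhg11, against 25.3% of the 13558 gene names in the 3 tables. With 4 names this share says little about the members. A count by position adds 1 row at Malat1, 1 at Neat1 and 2 at Miat, all under other names. The share by position over all genes is not given here, so this count has no background beside it.

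Neat1 and Miat carried many peaks for a gene. Each had more peaks than 98.5% of gene names in CCI and 98.7% in sham, where the median gene had 2. Against names that RefSeq classes as lncRNA and that had a peak, 425 in CCI and 485 in sham with a median of 1, the share was 99.3% and 99.2%. Snhg11 had more peaks than 74.98% of all names in CCI and 60.0% in sham. Since each Neat1 site is listed as 2 rows, its count by site is 5 in each list. Median fold enrichment was 7.00 in CCI and 5.09 in sham for Neat1, 5.80 and 6.78 for Miat, and 8.50 and 7.08 for Snhg11. It was 7.30 and 7.44 over lncRNA peaks and 5.725 and 5.7 over all peaks.

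**Figure D4:**
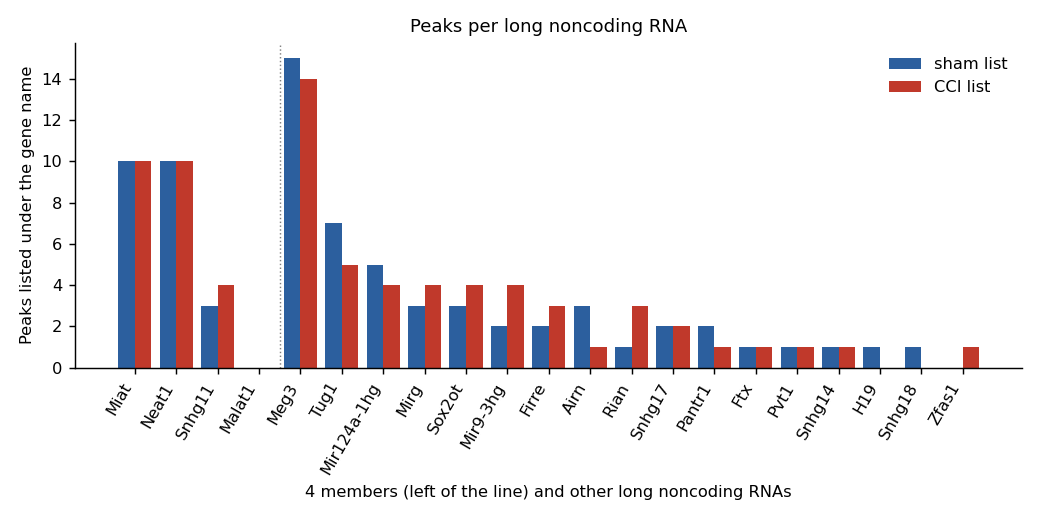
Number of peaks listed under each gene name (y axis) in the sham (blue) and CCI (red) lists, for the 4 members left of the dotted line and for the other listed long noncoding RNAs with a peak on the right. Neat1 and Miat have 10 in each list, Malat1 has none by name, and Meg3 has 14 in CCI and 15 in sham.

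Of 35 other long noncoding RNAs, 15 had a peak in CCI and 16 in sham, and the share of all expressed genes with a peak is not given here. The 38 pairs of these RNAs had a median log2 ratio of 0.12, and 5 of them (13.2%) were past 1, 2 higher and 3 lower in CCI. Meg3, an imprinted RNA expressed in neurons, had the most peaks, with a median fold enrichment of 2.88 in CCI and 3.73 in sham. Tug1 had 5 peaks in CCI and 7 in sham. Counted in rows, Neat1 and Miat came after Meg3 and above the other listed RNAs, but by site Neat1 has 5 in each list, no more than the rows of Tug1.

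The proteins that work with these RNAs were described through the peaks on their own mRNAs. All 11 paraspeckle protein genes had a peak in each list, and 1 of their 30 pairs was past 1, lower in CCI. Sfpq, which binds Neat1 and is essential for paraspeckles, had 5 peaks in CCI and 4 in sham with a median log2 ratio of 0.25. Of 15 nuclear speckle and splicing genes, 14 had a peak in CCI and 13 in sham, and 2 of 51 pairs were past 1, both higher in CCI. Srrm2, a core scaffold of speckles, had 16 and 13 peaks and a median log2 ratio of 0.02. Of 15 nuclear m6A proteins, 12 had a peak in each list, and 3 of 36 pairs were past 1, 2 of them higher in CCI. Ythdc1, the nuclear m6A reader, had 10 peaks in CCI and 7 in sham and a median log2 ratio of 0.36, and Zc3h13, a subunit of the writer complex, had -0.68 over 3 pairs. In these protein lists the share past 1 was 3.33%, 3.92% and 8.33%, against 15.8% of all pairs. The counts of genes with a peak have no such background, since the share over all expressed genes is not given here.

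The genes most like each member were found over 4 values, the log2 number of peaks and the log2 median fold enrichment in each list, among 11761 genes. They were Nbea and Plxna2 for Neat1, at distances of 0.20 and 0.21, Hip1r and Mprip for Miat, at 0.30 and 0.32, and Rps24 and Ripk1 for Snhg11, at 0.07 and 0.16.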

How the data were processed

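Spinal cord MeRIP-seq libraries (1 IP and 1 input per surgery, 4 in all) were represented by 3 tables of peaks. Per the file headers, the deposited fold is the ratio of IP to input signal within a peak, and a score gives the log of the false discovery rate in the CCI and sham lists. The format of the headers is that of exomePeak. The study's methods name Cutadapt, bowtie, MACS2 and ChIPseeker, while the submitters' processing notes name fastp, HISAT2, HOMER and ChIPseeker with GRCm38, and which of these made each column is not given in the sources used here. Peaks were called per surgery, and the tables hold no counts, so depth is unknown. The columns of CCI against sham in the differential table, which hold a log2 fold change, a p-value and a false discovery rate made by the authors, were not used.

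Members were found by gene name in the tables. The members and gene lists were chosen with earlier results of these data known. All peaks of both lists were paired as reciprocal best partners by overlap of exonic blocks (bedtools 2.31.1, at least 1 base), which was tested on simulated data, and log2 ratios of fold enrichment were taken over all 27380 pairs. The simulated peaks did not overlap within a list, so pairing among overlapping rows of a list, as at Neat1, was not tested. Wilson intervals have a level of 95%, cover counting error only and take each row as independent. The 4 members were matched by symbol to RefSeq (GRCm38.p6) for span and class. Named genes were the members, for each list at most 4 genes with the most peaks, and for each member the 2 genes most like it. Sequences of the peaks and motif matches were not analysed here, since no genome of the build was used. No promoter window of the 3 members that have one in RefSeq was overlapped by a peak of its locus. Scripts ran in Python 3.11.15 with pandas 2.3.3, numpy 2.4.6, matplotlib 3.10.9 and scipy 1.17.1.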

Additional observations from a re-analysis of the deposited data

How the results depend on the processing

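Of 84 alternative values, 68 stayed near the reported one and 16 moved. Some of the 68 could not move, since filtering or merging the 0 rows named Malat1 can only return 0. A false discovery rate below 0.01 left every peak count and number of covered bases unchanged. The tally is therefore not a measure of how robust the results are. Finding peaks by position, added after seeing the data, gave Malat1 1 peak in CCI, 1 in sham and 1 differential row, and Miat 2 differential rows. With a fold enrichment of at least 2, Neat1 had 6 peaks in CCI, and the share of sham member peaks with a partner was 77.3%. The weak Neat1 sites lie on either side of that cutoff, with 2.07 to 2.49 in sham and 1.84 to 1.91 in CCI. The share over all genes at this setting is not given here. Merging overlapping rows left Neat1 with 5 peaks in CCI, 5 in sham and 1 differential row. The mean over covered bases gave log2 ratios of 0.56 for Neat1, -0.0785 for Miat and 0.55 for Snhg11. Restricting to the 10 pairs with the same borders, also added after seeing the data, gave 0.0605 for Neat1 and 0.25 for Snhg11. It left 0 pairs under a member name past 1, since the only such pair had different borders. The highest value per site, likewise added after seeing the data, gave 0.0277 for Neat1, a turn of direction within the 0.1 taken as near. At an absolute log2 ratio of 0.5, 6 member pairs were past it. No paired analysis was possible because each surgery has 1 IP library. Depth is unknown, so a site absent from a list was not called there and is not shown to be unmethylated. A peak also depends on the gene model it is assigned to. The planned motif count was not run, since it needs a genome of the build.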
